A study of Mus musculus with 8 samples.

Results

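10 genes of one inflammatory circuit were followed through whole bone marrow (BM): the cytokine genes Tnf, Il1a, Il1b, Il6, Il10 and Il18, the IL-1 receptor antagonist gene Il1rn, the NF-kB feedback inhibitor genes Nfkbia and Tnfaip3, and Ptgs2. The members were taken by name, 10 of the 41214 genes counted in each of 8 RNA-seq libraries. Each library came from 1 C57Bl6 mouse, and there were 4 groups of 2 mice: young KD (39 and 42 days old), young KO (48 and 44 days), sick KD (187 and 78 days) and old KO (158 and 101 days). KO mice lack Gfi1, a transcriptional repressor of myeloid genes. KD mice carry human GFI1 in place of the mouse gene with a floxed neo cassette that keeps its expression low, so all 8 mice have an altered Gfi1 locus, and no wild-type library was analysed here. The labels give AML for sick KD mice and no AML for old KO mice, whereas the disease is called a myeloproliferative neoplasm in the paper. Disease and age differ together between sick KD and young KD mice and cannot be told apart. Between old KO and sick KD mice genotype (KO or KD) and disease differ together, and ages differ too, so these cannot be told apart either. Groups are named by their labels throughout. On GRCm38 the 3 members with a call are Tnf (ENSMUSG00000024401) at chr17:35199381-35202007, Il1a (ENSMUSG00000027399) at chr2:129299610-129309972 and Tnfaip3 (ENSMUSG00000019850) at chr10:19000910-19015657, all on the minus strand.

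TNF and IL-1 bind receptors that activate IkB kinase, which marks the inhibitor IkB-alpha (Nfkbia) for destruction and frees NF-kB to enter the nucleus. NF-kB then drives transcription of the cytokines, of the prostaglandin-forming enzyme Ptgs2, and of its own brakes Nfkbia and Tnfaip3 (A20, which edits ubiquitin chains on the signalling complexes). In BM the cytokines come largely from monocytes, macrophages and neutrophils. Their messages are kept short-lived by AU-rich elements in the 3′ UTR, which are bound by decay factors such as tristetraprolin (Zfp36).

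The upstream sequences of 4 members are shown because one of these genes rose in sick KD mice, another pair fell, and Nfkbia, a direct NF-kB target, was not called. RefSeq windows on GRCm38.p6, from 250 bases before to 50 bases after a start, were found for 9 of the 10 members (12 windows, none for Il10). The 250 bases before the start are printed on the gene's strand, with matches on either strand to the TATA box hexamer TATAAA, the AP-1 site TGANTCA and the NF-kB consensus in capitals. They are chr17:35202008-35202257 for Tnf, chr2:129309973-129310222 for Il1a, chr12:55492648-55492897 for Nfkbia and chr10:19015411-19015660 for Tnfaip3, all on the minus strand. For Tnfaip3 the window before the more upstream of its 2 RefSeq starts is shown. Another annotated transcript begins at chr10:19015657, near the far end of this window. Most of the printed Tnfaip3 bases, with the matches in them, thus lie inside the annotated gene.
Tnf: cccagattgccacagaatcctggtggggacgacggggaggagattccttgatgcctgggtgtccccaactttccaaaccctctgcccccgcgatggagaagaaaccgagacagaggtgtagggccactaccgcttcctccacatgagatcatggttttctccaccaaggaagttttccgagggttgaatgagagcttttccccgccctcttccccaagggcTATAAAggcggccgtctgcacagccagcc
Il1a: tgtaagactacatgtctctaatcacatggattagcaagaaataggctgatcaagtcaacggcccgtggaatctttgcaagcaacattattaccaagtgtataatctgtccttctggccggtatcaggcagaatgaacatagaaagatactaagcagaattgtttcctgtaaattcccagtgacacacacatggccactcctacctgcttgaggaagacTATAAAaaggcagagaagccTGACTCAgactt
Nfkbia: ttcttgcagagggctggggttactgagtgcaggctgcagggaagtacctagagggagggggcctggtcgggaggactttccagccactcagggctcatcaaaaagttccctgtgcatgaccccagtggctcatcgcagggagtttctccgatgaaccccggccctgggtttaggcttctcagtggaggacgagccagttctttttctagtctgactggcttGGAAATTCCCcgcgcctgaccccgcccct
Tnfaip3: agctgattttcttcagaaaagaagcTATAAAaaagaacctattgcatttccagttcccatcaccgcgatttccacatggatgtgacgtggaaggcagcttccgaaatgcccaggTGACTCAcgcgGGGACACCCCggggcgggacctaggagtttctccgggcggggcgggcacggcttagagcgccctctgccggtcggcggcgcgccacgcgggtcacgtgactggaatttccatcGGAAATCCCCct
The Tnf window held TATAAA at −29 from the start and no match to the other motifs. The Nfkbia window held GGGAATTTCC at −29 on the opposite strand, and the Tnfaip3 window held GGGGATTTCC at −12 on the opposite strand, GGGACACCCC at −125, TGACTCA at −136 and TATAAA at −225. The Il1a window held TATAAA at −32 and TGACTCA at −12. Over the whole windows the NF-kB consensus occurred in 3 members (Il6, Nfkbia and Tnfaip3) and in 5.14% of the 27025 genes with a window. No match to one of the 3 motifs overlapped a match to another in the windows printed. TGANTCA occurred in 4 of the 9 members with a window and 8.97% of genes, and TATAAA in 7 of the 9 and 15.7% of genes. TATAAA lay on the gene's strand at −29 for Tnf, −31 for Il1b and −32 for Il1a. For Il1rn, Il18, Nfkbia and Tnfaip3 it lay farther from these positions, 3 of them on the opposite strand. By window rather than by gene, the shares were 4.51%, 7.81% and 13.6% of 32851 windows. A match is a stretch of letters and not a measured binding site.

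The densest AU-rich stretches of 3 members are shown because these are the members whose 3′ UTRs pack the most copies of ATTTA into 30 bases. On the gene's strand, with each ATTTA in capitals, they are chr17:35199679-35199708 for Tnf (minus strand), chr2:129364808-129364837 for Il1b (minus strand) and chr1:150105794-150105823 for Ptgs2 (plus strand), on GRCm38.
Tnf: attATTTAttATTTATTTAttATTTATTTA
Il1b: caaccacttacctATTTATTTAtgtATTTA
Ptgs2: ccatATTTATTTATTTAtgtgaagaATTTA
The 764-base Tnf 3′ UTR held 8 ATTTA pentamers, 5 of them in the stretch printed. As many or more per kilobase were found in 1.14% of the 21022 genes with an annotated 3′ UTR. The Ptgs2 3′ UTR held 14 and the Il6 3′ UTR 10, whereas that of Il1rn, the antagonist, held 0. The median over the 10 members was 4.5 pentamers, and over all genes it was 1. The longer form TATTTAT was in 8 of the 10 members and in 26.9% of all genes.

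Libraries held 26642067 to 42679114 counts on genes. HTSeq, the counting program, assigned 42.0% and 38.8% of uniquely aligned reads to no annotated feature for sick KD mouse 1 and mouse 2. The other 6 libraries had 26.9% to 33.8% of such reads, and this tally does not show where they lay. Mitochondrial genes took 1.42% and 1.16% of counts for sick KD mouse 1 and mouse 2, against 0.464% to 0.787% for the other 6. The mouse Gfi1 gene had 6.17 and 7.03 counts per 1000000 (CPM) in young KD, 14.0 and 14.4 in young KO, 5.49 and 7.15 in sick KD and 13.3 and 29.7 in old KO. KD mice carry human GFI1 and a knockout allele can still be transcribed, so these values do not check the labels. CPM values are normalized by TMM (trimmed mean of M-values), and genes were tested by the quasi-likelihood method of edgeR, with p-values adjusted after Benjamini and Hochberg over all genes tested and called under 0.05. Each library is a separate mouse, and the 2 mice of a group differ in age, so the spread within a group includes age. The edgeR p-values draw on that spread in the groups fitted and on spread shared over all genes tested.

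In sick KD against young KD mice Tnf rose, and Il1a and Tnfaip3 fell. These are 3 of the 9 members tested, against 20.9% of all 14656 genes tested (9.45% higher and 11.4% lower). In old KO against sick KD mice Tnf was the only member called, and it was lower in old KO. That is 1 of 8 members tested, against 18.1% of all genes (9.93% higher and 8.22% lower). In young KO against young KD mice 0 of 9 members were called by edgeR and 0 by DESeq2. Of all genes edgeR called 0.0404% (0.0202% higher and 0.0202% lower). There 1 member, Tnfaip3, had an unadjusted p under 0.05 by edgeR. In old KO against young KO mice edgeR called 0 of 9 members, against 0.929% of all genes (0.323% higher). There Il1b and Il6 had an unadjusted p under 0.05, and DESeq2 called 1 member, Il1b. The interaction, which asks whether KO and KD mice differed by another amount in the young pair of groups than in the older pair, was called for Tnf, 1 of 9 members against 7.43% of all genes (4.32% positive and 3.11% negative). In the older pair only the KD mice were sick, so the interaction does not separate genotype from disease. With so many genes called in the sick KD comparisons, these counts are no result about the members as a set. The 2 mice of one group lay wholly above or below those of the other for 5 of the 9 members in sick KD against young KD mice (66.7% of all genes), for 6 of 8 in old KO against sick KD mice (66% of all genes), for 3 of 9 in young KO against young KD mice (27% of all genes) and for 3 of 9 in old KO against young KO mice (37.7% of all genes). Sick KD mice are in both of their comparisons, so these are not independent.

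**Figure D1:**
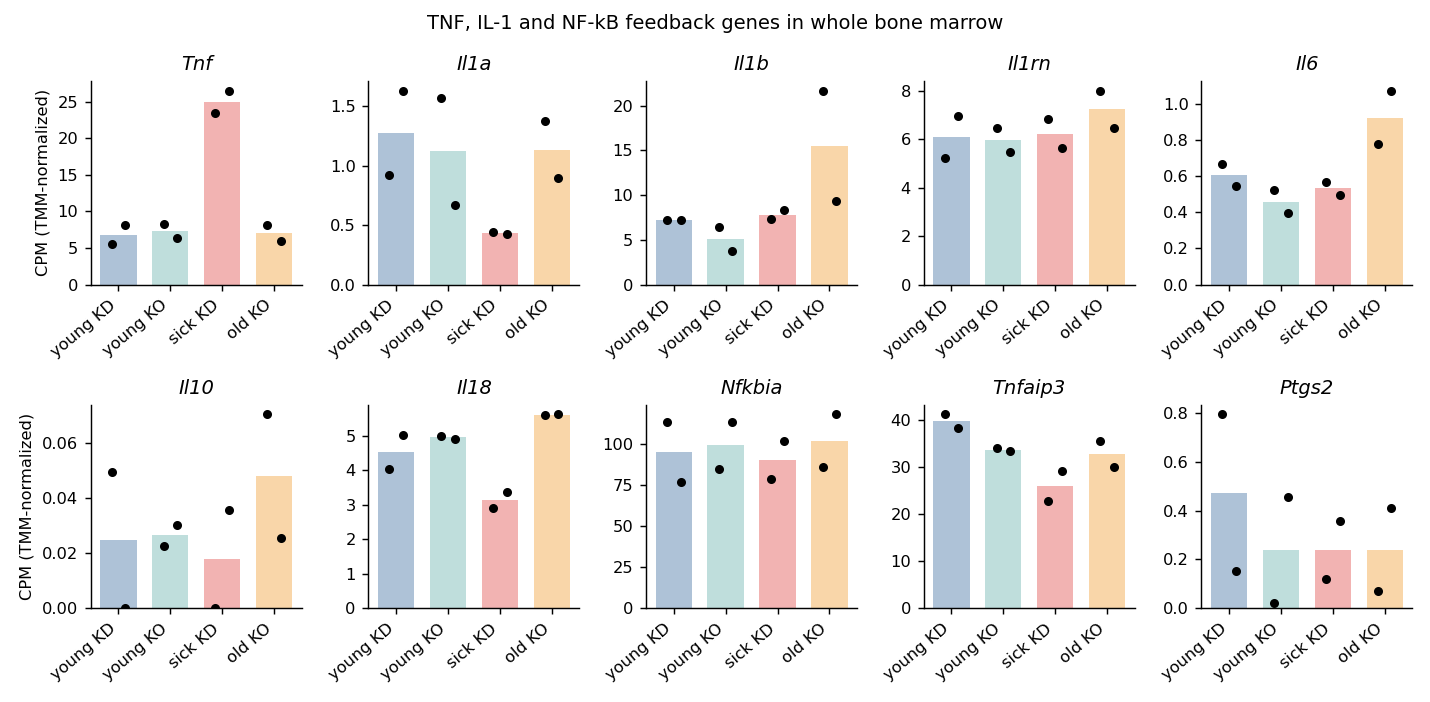
Level of each of the 10 genes (y axis, TMM-normalized CPM, linear from 0) in the 4 groups (x axis). Bars are the mean of 2 mice and points are the mice. Tnf stood at 23.4 and 26.5 CPM in sick KD mice and at most 8.34 CPM in the 6 other mice, Il1a, Il18 and Tnfaip3 were lowest in the 2 sick KD mice, and Nfkbia overlapped in all groups.

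Tnf encodes the prototype of the TNF cytokine family. Its level was 5.53 and 8.08 CPM in young KD mice, 8.34 and 6.30 CPM in young KO mice, 23.4 and 26.5 CPM in sick KD mice, and 8.14 and 5.97 CPM in old KO mice. The 2 sick KD mice were above all 6 others, and the other 3 groups overlapped each other. In counts this was 580 and 745 reads in the sick KD libraries and 207 to 367 in the rest. Tnf was 3.66-fold higher in sick KD than in young KD mice (log2 fold change 1.87, SE 0.21, adjusted p = 0.00546, edgeR). Against sick KD mice, old KO mice had a log2 fold change of −1.82 (SE 0.20, adjusted p = 0.00496, edgeR), 0.283-fold. Both calls held under all 9 alternatives, with log2 fold changes of 1.61 to 2.14 and of −2.05 to −1.62. In young KO against young KD mice the log2 fold change was 0.11 (SE 0.24), and in old KO against young KO mice −0.06 (SE 0.24). The interaction was −1.94 on the log2 scale (SE 0.34, adjusted p = 0.0218, edgeR). Its call was lost without young KD mouse 1, young KO mouse 1, young KO mouse 2 or sick KD mouse 1, with adjusted p of 0.0513 to 0.0761 and values of −2.12 to −1.69.

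**Figure D2:**
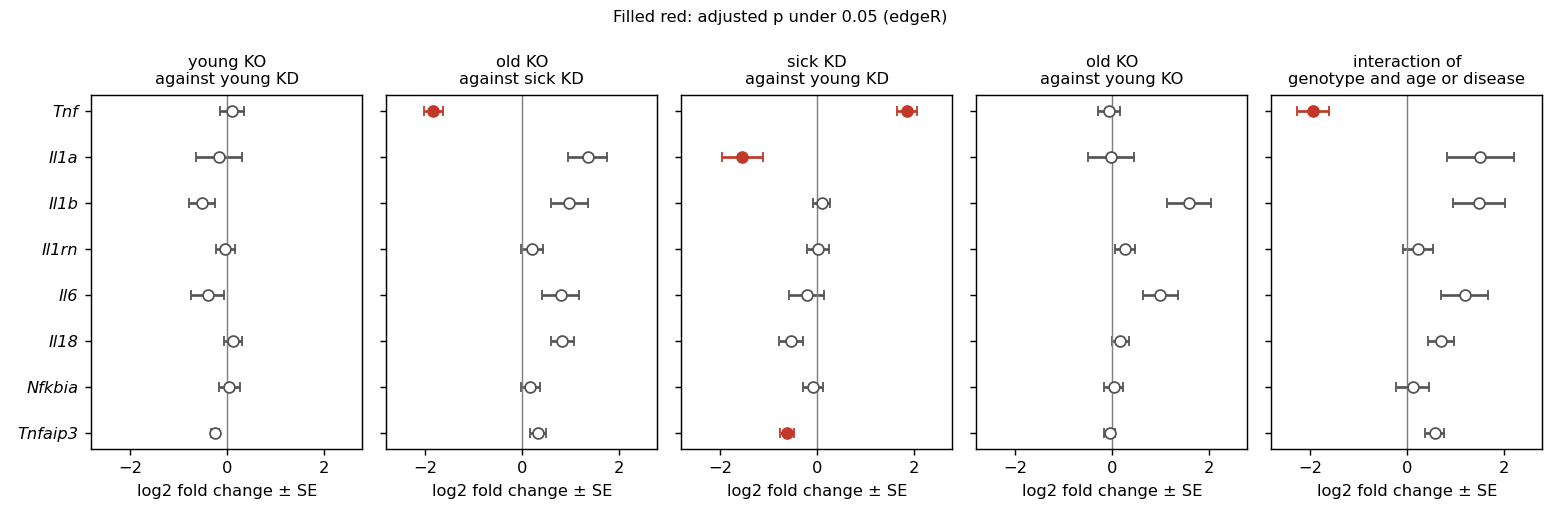
Log2 fold change with its standard error (x axis) of 8 members (y axis) in the 4 comparisons of 2 groups and in the interaction, by edgeR. Filled red points have an adjusted p under 0.05. Ptgs2 and Il10, whose counts were too low, are left out. Tnf was called in both comparisons with sick KD mice and in the interaction, and Il1a and Tnfaip3 in sick KD against young KD mice.

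Some monocyte markers were also higher in sick KD mice. Among the 10 monocyte markers, Ly6c2, Klf4 and Ms4a6c rose against young KD and Cx3cr1 fell. The summed level of the list was 6651 to 8596 CPM in young KD, 7618 to 8895 in young KO, 9894 to 10371 in sick KD and 8979 to 8995 in old KO, and no marker was at 0. Per 1000 CPM of that sum, Tnf was at 2.26 to 2.68 CPM in sick KD mice and at 0.664 to 0.940 CPM in the 6 other mice. The ranges did not overlap on this scale. Relative to 1000 CPM of macrophage markers Tnf was at 88.3 to 114 CPM in sick KD mice and 13.1 to 21.9 CPM in the others. Relative to 1000 CPM of neutrophil markers the ranges did overlap, at 5.31 CPM in sick KD mouse 1 and 15.2 CPM in sick KD mouse 2, against 4.06 to 6.70 CPM in young mice and 7.11 to 10.6 CPM in old KO mice. The neutrophil sum was 4407 CPM in sick KD mouse 1, 1738 CPM in sick KD mouse 2 and 771 to 1639 CPM in the 6 other mice. Most of it in sick KD mouse 1 came from S100a8, S100a9 and Mmp8, at 2140, 1110 and 889 CPM. All values given per neutrophil sum lean on these markers. In bulk BM a change in the number of cells of a type and a change in RNA per cell cannot be told apart, and the part of monocyte or neutrophil number in the Tnf level was not tested.

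Il1a and Il1b encode the agonists of the IL-1 receptor, and Il1rn encodes the antagonist that occupies the same receptor without signalling. Il1a was at 0.917 and 1.63 CPM in young KD, 1.57 and 0.670 CPM in young KO, 0.444 and 0.427 CPM in sick KD, and 1.37 and 0.893 CPM in old KO. Both sick KD mice were below the 6 others. The sick KD values rest on 11 and 12 reads, against 22 to 69 in the other libraries. Against young KD mice the log2 fold change was −1.54 (SE 0.42, adjusted p = 0.0457, edgeR), 0.345-fold. This call was lost with DESeq2 (adjusted p = 0.122), with all 8 mice in one edgeR fit (adjusted p = 0.0603) and without young KD mouse 2, sick KD mouse 1 or sick KD mouse 2 (adjusted p of 0.115 to 0.215, log2 fold changes of −1.56 to −1.10). Against sick KD mice Il1a in old KO mice had a log2 fold change of 1.36 (SE 0.40, adjusted p = 0.0588, edgeR), which did not pass the threshold. Il1a shares 222 exon bases with Gm14023 on the opposite strand, a gene with 93 counts over all 8 libraries, and the strand setting of the counting is not given in the sources used here.

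Il1b did not follow Il1a. It was at 7.24 and 7.27 CPM in young KD, 6.41 and 3.74 CPM in young KO, 7.31 and 8.32 CPM in sick KD, and 21.7 and 9.31 CPM in old KO. The 2 sick KD mice were just above both young KD mice and below both old KO mice, and old KO mouse 1, with 615 reads, stood far above the other 7. Old KO against young KO mice gave a log2 fold change of 1.60 (SE 0.45, unadjusted p = 0.0126, adjusted p = 0.293, edgeR), which did not pass. DESeq2 called it (adjusted p = 0.00678), as did edgeR without old KO mouse 2 (log2 fold change 2.08, adjusted p = 0.0446). Without old KO mouse 1 the log2 fold change was 0.87 (adjusted p = 0.723, edgeR), so the 158-day-old mouse decided the value. In sick KD against young KD mice the log2 fold change of Il1b was 0.10 (SE 0.18). Old KO against sick KD mice gave 0.99 (SE 0.38, adjusted p = 0.111, edgeR), which did not pass, whereas DESeq2 called it (adjusted p = 0.0405). With a mouse left out that value ran from 0.27 to 1.47. Il1b shares 25 exon bases with its antisense gene Il1bos, which had 101 counts in all.

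Il1rn was the steadiest of the IL-1 genes. It was at 5.23 and 6.93 CPM in young KD, 6.47 and 5.48 CPM in young KO, 6.82 and 5.62 CPM in sick KD, and 7.995 and 6.46 CPM in old KO, and all groups overlapped. Its log2 fold changes lay between −0.03 and 0.27 in the 4 comparisons. Within libraries the ratio of Il1b to Il1rn CPM was 2.71 in old KO mouse 1 and 0.683 to 1.48 in the other 7 mice. The ratio of Il1a to Il1rn was 0.0651 and 0.0759 in sick KD mice and 0.122 to 0.242 in the 6 other mice.

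Il18, an IL-1 family cytokine that is stored as a precursor, was at 4.04 and 5.01 CPM in young KD, 4.997 and 4.90 CPM in young KO, 2.91 and 3.38 CPM in sick KD, and 5.60 and 5.61 CPM in old KO. The 2 sick KD mice were the lowest of the 8 and the 2 old KO mice the highest. Old KO against sick KD mice gave a log2 fold change of 0.84 (SE 0.23, adjusted p = 0.0505, edgeR), just over the threshold, and the adjusted p under 9 alternatives ran from 0.0175 to 0.163 with 4 calls. Sick KD against young KD mice gave −0.53 (SE 0.24, adjusted p = 0.166, edgeR).

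Most macrophage markers were lowest in sick KD mice too. Of 11 macrophage markers 10 fell in sick KD against young KD mice, among them C1qa, C1qc and Mrc1, and 10 of 11 were higher in old KO than in sick KD mice. Their summed level was 305 to 370 CPM in young KD, 381 to 416 in young KO, 233 to 265 in sick KD and 456 to 554 in old KO, and none was at 0. Adgre1, the 1 marker not called in either comparison, made up most of that sum in sick KD mice. It was at 185 and 161 CPM there and at 126 to 208 CPM in the other 6. The median log2 fold change of the 11 markers was −1.42 in sick KD against young KD mice. All values given per macrophage sum lean on Adgre1, and none was computed without it. Per 1000 CPM of that sum Il18 was at 10.96 to 14.5 CPM in sick KD mice and 10.1 to 13.5 CPM in the other 6, so the ranges overlapped on this scale. Il1a on this scale was at 1.67 to 1.83 CPM in sick KD mice and 1.76 to 4.40 CPM in the others, also overlapping. Per 1000 CPM of monocyte markers, sick KD mice remained apart for both, at 0.0428 to 0.0431 CPM for Il1a against 0.0879 to 0.189 CPM, and at 0.280 to 0.341 CPM for Il18 against 0.562 to 0.643 CPM. The part of macrophage number in either gene was not tested.

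**Figure D3:**
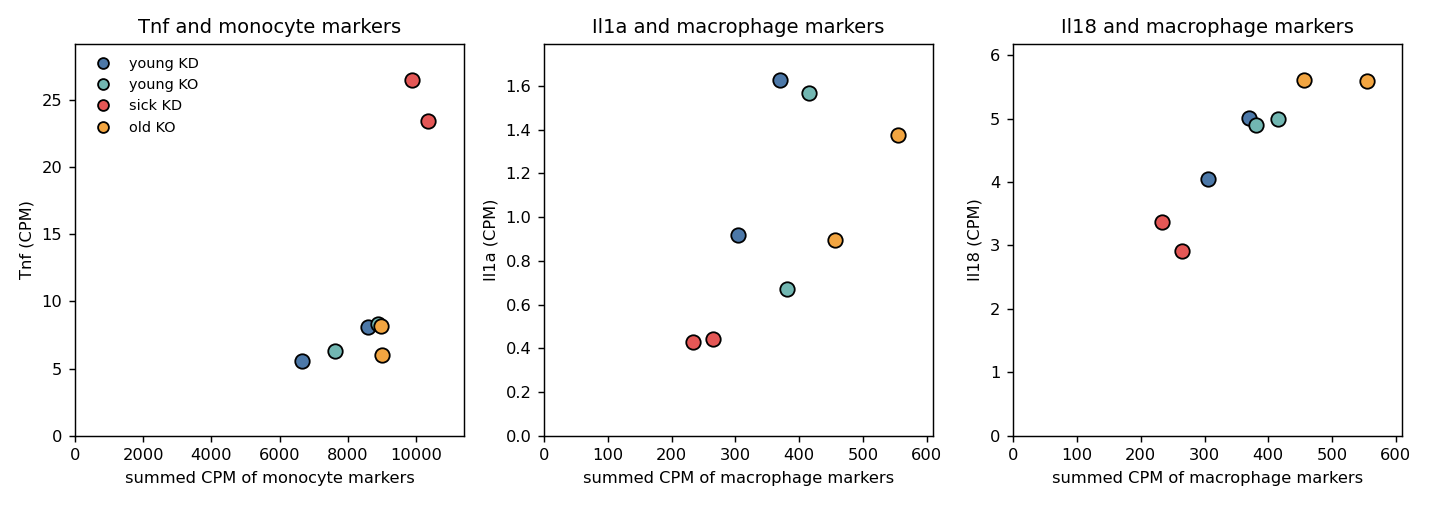
CPM of Tnf, Il1a and Il18 (y axes) against the summed CPM of 10 monocyte or 11 macrophage markers (x axes), 1 point per mouse, both axes linear from 0. The sick KD mice lay far above the others in Tnf at monocyte sums of 9894 and 10371 CPM, and at the low end of both axes for Il1a and Il18.

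Il6 and Il10 were scarce in whole BM. Il6, a cytokine of the acute phase response, was at 0.669 and 0.543 CPM in young KD, 0.522 and 0.396 CPM in young KO, 0.565 and 0.498 CPM in sick KD, and 0.775 and 1.07 CPM in old KO, from 13 to 42 reads. The 2 old KO mice were the highest. Old KO against young KO mice gave a log2 fold change of 1.0004 (SE 0.36, unadjusted p = 0.0317, adjusted p = 0.475, edgeR), which did not pass. Il10, the anti-inflammatory cytokine, had 0 to 2 reads in every library, under a floor of 3 counts, so no difference was detectable at this depth and no fold is given.

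Nfkbia and Tnfaip3, the feedback inhibitors, did not follow Tnf. Nfkbia was at 113 and 76.7 CPM in young KD, 84.8 and 113 CPM in young KO, 78.5 and 102 CPM in sick KD, and 85.9 and 118 CPM in old KO. All 4 groups overlapped, and sick KD against young KD mice gave a log2 fold change of −0.08 (SE 0.21, adjusted p = 0.807, edgeR). Tnfaip3 was at 41.2 and 38.4 CPM in young KD, 34.0 and 33.4 CPM in young KO, 22.9 and 29.1 CPM in sick KD, and 35.6 and 29.99 CPM in old KO. The sick KD mice were the lowest of the 8. Tnfaip3 fell in sick KD against young KD mice (log2 fold change −0.62, SE 0.15, adjusted p = 0.0328, edgeR), 0.651-fold. The call was lost when each library's trend in GC content and length was removed (−0.42, adjusted p = 0.0664), without young KD mouse 1 (−0.58, adjusted p = 0.128) and without sick KD mouse 1 (−0.45, adjusted p = 0.0605). Tnfaip3 per 1000 CPM of macrophage markers was at 86.3 to 125 CPM in sick KD mice, inside the 64.2 to 135 CPM of the 6 others. Per 1000 CPM of monocyte markers it was at 2.21 to 2.95 CPM in sick KD mice and 3.33 to 6.19 CPM in the others, which did not overlap. The part of either cell type in the fall was not tested. In young KO against young KD mice Tnfaip3 had a log2 fold change of −0.25 (SE 0.08) with an unadjusted p = 0.0274 in edgeR's fit over all genes, and it was not called.

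Tnf rose and Tnfaip3 fell in the same sick KD mice. The ratio of Tnf to Tnfaip3 CPM within a library was 1.02 and 0.909 in sick KD mice and 0.134 to 0.245 in the 6 other mice. The ratio of Tnf to Nfkbia was 0.298 and 0.260 in sick KD mice and 0.0488 to 0.105 in the others. Neither ratio overlapped between sick KD mice and the rest. A ratio within a library shows unequal change and not which gene moved.

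Compared per kilobase of transcript, Nfkbia was the most abundant member in every group, with a mean of 56.0 to 63.2 CPM per kb. Tnf was at 4.15 to 4.47 CPM per kb in 3 groups, near Tnfaip3 (3.601 to 5.51), Il18 (3.05 to 5.44) and Il1b (2.66 to 8.12), and it was second only to Nfkbia in sick KD mice at 15.2 CPM per kb. Il1rn followed at 1.08 to 1.31 CPM per kb. Il1a, Il6, Ptgs2 and Il10 had means of 0.645 CPM per kb or less.

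Ptgs2, the inducible cyclooxygenase, varied more between mice of one group than between groups. It had 32 and 5 reads in young KD, 1 and 15 in young KO, 3 and 10 in sick KD, and 2 and 16 in old KO. It was not tested in old KO against sick KD mice because its counts were below the filter. The library with more Ptgs2 was, in each group, also the one with more Nfkbia and less Il1rn, which are young KD mouse 1, young KO mouse 2, sick KD mouse 2 and old KO mouse 2. The same libraries had the higher sum of 12 immediate early genes, which cells switch on within minutes of a stimulus. That sum was 956 against 520 CPM in young KD, 732 against 509 in young KO, 706 against 519 in sick KD and 845 against 717 in old KO. They also had the lower sum of 8 megakaryocyte and platelet markers, at 119 against 320 CPM in young KD, 74.7 against 339 in young KO, 96.0 against 189 in sick KD and 156 against 249 in old KO. Tnf was lower in these libraries in 3 groups and higher in sick KD mouse 2. With 2 mice a group this is a description of 8 libraries, chosen after the values were seen, and its source was not tested.

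**Figure D4:**
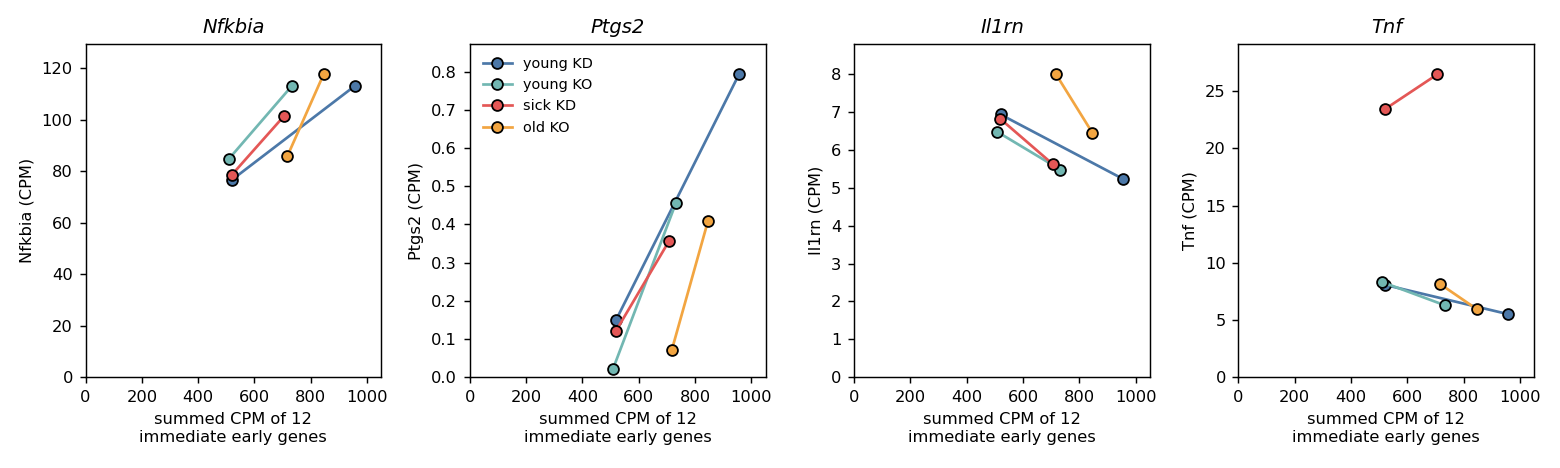
CPM of Nfkbia, Ptgs2, Il1rn and Tnf (y axes) against the summed CPM of 12 immediate early genes (x axes). Points are mice and lines join the 2 mice of a group. Nfkbia and Ptgs2 were higher and Il1rn lower in the mouse with the higher sum in all 4 groups, whereas Tnf differed in sick KD mice.

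Other genes of the pathway were taken from 6 lists of 81 genes, of which 80 were tested. In sick KD against young KD mice 8 were higher and 6 lower, in old KO against sick KD mice 10 were higher and 7 lower, and in young KO against young KD and old KO against young KO mice edgeR called 0. Of all genes 9.45% were called higher and 11.4% lower in sick KD against young KD mice, and 9.93% higher and 8.22% lower in old KO against sick KD mice, so the pathway counts are near the background. The median log2 fold change of the 80 genes was 0.01 in sick KD against young KD and −0.01 in old KO against sick KD mice, and that of all genes was 0.01 and −0.00. Many of these calls were lost when a mouse was left out. Of the 14 in sick KD against young KD mice 6 held under every alternative (Il1r2, Nfkb2, Nfkbie, Relb, Socs3 and Traf5), and of the 17 in old KO against sick KD mice 5 did (Il10ra, Il18r1, Il1r2, Relb and Traf1). Between sick KD and young KD mice 8 calls were lost without young KD mouse 1, 6 without young KD mouse 2, 2 without sick KD mouse 1 and 2 without sick KD mouse 2, with adjusted p of 0.0501 to 0.369. Between old KO and sick KD mice 9 were lost without sick KD mouse 1, 4 without sick KD mouse 2, 10 without old KO mouse 1 and 8 without old KO mouse 2, with adjusted p of 0.0537 to 0.271.

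Among 13 receptor genes Il1r2 moved most. It encodes the decoy receptor that binds IL-1 without signalling. It was at 1.16 and 1.27 CPM in young KD, 1.27 and 1.77 CPM in young KO, 20.1 and 9.92 CPM in sick KD, and 1.30 and 1.30 CPM in old KO. Its log2 fold change was 3.62 (SE 0.38, adjusted p = 0.00496, edgeR) in sick KD against young KD and −3.52 (SE 0.38, adjusted p = 0.00493, edgeR) in old KO against sick KD mice, and both were called under all 9 alternatives. Neutrophil markers, on which the 2 sick KD mice differed, summed to 4407 CPM in sick KD mouse 1 and 1738 CPM in mouse 2, against 771 to 1639 CPM in the other 6, with 1 of 11 called higher (Mmp8) and 1 lower (Retnlg) against young KD. Per 1000 CPM of that sum, which leans on S100a8, S100a9 and Mmp8, Il1r2 was at 4.56 to 5.71 CPM in sick KD mice. It was at 0.773 to 1.69 CPM in the others. Il6ra and Il6st, the receptor chains for IL-6, rose in sick KD against young KD mice (log2 fold changes of 0.50 and 0.59) and Il10ra fell (−0.56). In old KO against sick KD mice Il10ra and Il18r1, the IL-18 receptor chain, were higher (0.91 and 1.70). The receptors for TNF were not called, with log2 fold changes of 0.03 for Tnfrsf1a and 0.16 for Tnfrsf1b in sick KD against young KD mice.

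Of the 8 genes of cytokine processing and secreted inhibition, the inflammasome genes Pycard and Nlrp3 rose in sick KD against young KD mice (log2 fold changes of 0.65 and 0.41). Pycard and the caspase gene Casp4 were lower in old KO than in sick KD mice (−0.62 and −0.50). Adam17, the protease that releases TNF from the membrane, was not called in sick KD against young KD mice (−0.34, adjusted p = 0.123, edgeR). Of the 19 receptor-proximal signalling genes Traf5 fell in sick KD against young KD mice (−0.98). In old KO against sick KD mice Traf5 and Irak2 were higher (0.66 and 0.50) and Traf6 lower (−0.49).

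Of the 5 NF-kB subunit genes, in sick KD against young KD mice 3 fell (Relb, Nfkb2 and Nfkb1) and 0 rose, where 11.4% of all genes were called lower. The median log2 fold change was −0.54, against 0.01 for all genes. Relb, Nfkb2 and Nfkb1 were higher in old KO than in sick KD mice, where 9.93% of all genes were, and the median was 0.73, against −0.00 for all genes. Relb was at 17.7 and 17.2 CPM in young KD, 15.9 and 15.2 CPM in young KO, 6.42 and 8.14 CPM in sick KD, and 19.9 and 17.0 CPM in old KO. Its log2 fold change was −1.27 (SE 0.17, adjusted p = 0.0082, edgeR) in sick KD against young KD and 1.34 (SE 0.20, adjusted p = 0.0089, edgeR) in old KO against sick KD mice, and both calls held under all 9 alternatives. Nfkb2, the partner of Relb in the alternative pathway, had −0.81 and 0.82, and Nfkb1 had −0.54 and 0.73. Rela, the main activating subunit of the classical pathway, was not called (−0.32, adjusted p = 0.218, edgeR), nor was Rel, whose value had the other sign (0.34, adjusted p = 0.150, edgeR). All 10 B cell markers also fell in sick KD against young KD mice, with summed levels of 804 to 1063 CPM in young KD, 657 to 905 in young KO, 36.8 to 99.1 in sick KD and 129 to 209 in old KO, and none at 0. Nfkb1 per 1000 CPM of macrophage markers was at 606 to 845 CPM in sick KD mice and 546 to 860 CPM in the others, and Nfkb2 at 94.4 to 145 CPM against 100.3 to 177 CPM, so both overlapped. Relb on this scale was at 24.2 to 34.9 CPM in sick KD mice and 35.9 to 58.1 CPM in the others. In sick KD mice most of the macrophage sum came from Adgre1, which was not called, so the gap for Relb depends on that marker. Per 1000 CPM of B cell markers Relb was at 82.2 to 174 CPM in sick KD, 81.4 to 154 CPM in old KO and 16.7 to 24.2 CPM in young mice. On that scale Nfkb1 and Nfkb2 also overlapped between sick KD and old KO mice and were lower in young mice. The part of B cell or macrophage number in these falls was not tested.

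Of 24 feedback inhibitors and other NF-kB targets, Irak3 and Socs3 rose and Nfkbie fell in sick KD against young KD mice (log2 fold changes of 0.68, 1.02 and −1.23). Irak3 blocks IL-1 receptor signalling, Socs3 blocks signalling through the IL-6 receptor, and Nfkbie encodes IkB-epsilon. Traf1, Icam1 and Tnfaip2 were higher in old KO than in sick KD mice (1.73, 0.72 and 0.61), and Socs3 and Irak3 lower (−0.71 and −0.59). Traf1 was at 2.26 and 2.65 CPM in young KD, 2.54 and 2.19 CPM in young KO, 1.65 and 1.81 CPM in sick KD, and 6.48 and 5.08 CPM in old KO, so old KO mice stood above the other 6. Of the prostaglandin genes, 11 of 12 tested, Ptges2 alone was called, higher in sick KD than in young KD (0.55) and lower in old KO than in sick KD mice (−0.52).

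**Figure D5:**
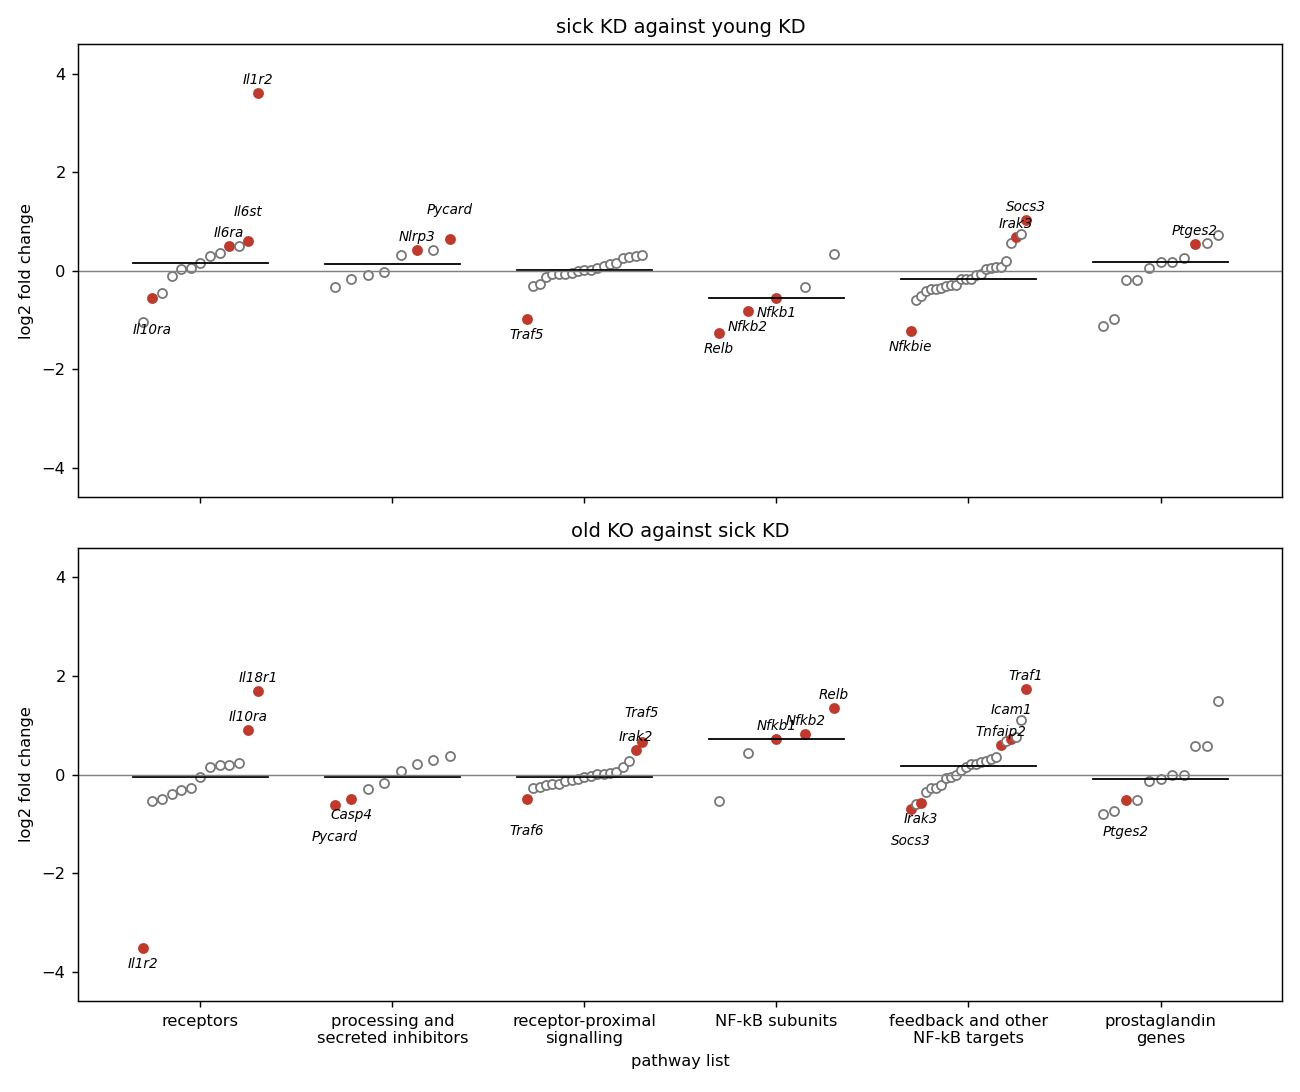
Log2 fold change (y axis) of the 80 tested pathway genes in 6 lists (x axis), in sick KD against young KD (top) and old KO against sick KD mice (bottom). Points are genes ordered by value, filled red with an adjusted p under 0.05 by edgeR, and black lines are list medians. Il1r2 reached 3.62 and −3.52, and Relb, Nfkb2 and Nfkb1 lay below 0 in the top panel and above 0 in the bottom panel.

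The genes whose pattern was most like each called member were found by Pearson correlation of log2(CPM + 1) over the 8 libraries, as a description, among 11127 or 11128 protein-coding genes with a mean of at least 1 CPM. For Tnf they were Card9 (r = 0.994), an adaptor that leads from fungal receptors to NF-kB, Exosc1 (r = 0.994) and Klhl5 (r = 0.993). Card9 was at 179 and 192 CPM in sick KD and 111 to 128 CPM in the other mice. For Il1a they were Fopnl (r = 0.990), Hars2 (r = 0.964) and Ngrn (r = 0.960), and for Tnfaip3 they were Pogk (r = 0.994), Katnal1 (r = 0.976) and Evl (r = 0.974). The sick KD mice set most of the spread in these members, and all points share the same libraries.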

How the data were processed

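Poly(A) RNA of whole BM was made into stranded libraries and sequenced by the study. The submitters' processing notes name mm10, TopHat 2.0.10, SAMtools, HTSeq and DESeq. The files deposited by the authors hold raw counts of reads per Ensembl gene. The annotation release and the strand setting are not given in the sources used here. The 5 HTSeq tallies that name no gene were left out of library sizes. Tests here used edgeR 4.0.16 in R 4.3.3 on the counts as deposited (TMM, filterByExpr with a minimum count of 10, quasi-likelihood test, Benjamini-Hochberg adjustment over all genes, called under 0.05), each comparison on its own 4 mice and the interaction on all 8. DESeq2 1.42.0, its size factors, no filter, all 8 mice in one fit, removal of a trend in GC content, length and gene span, and leaving out each mouse were alternatives. Scripts were tested on simulated counts with 200 genes changed in each comparison. In sick KD against young KD mice 26 of 143 calls were false, and in old KO against sick KD mice 13 of 117. It was 12 of 120 in young KO against young KD, 35 of 155 in old KO against young KO and 7 of 70 in the interaction. In each the false share was above the threshold of 0.05. Of 1.5-fold changes 1.54% to 25.3% were recovered, and of 2-fold changes 35.9% to 71.9%. With 2 mice a group an exact permutation test of 1 gene cannot go below p = 0.333 and was not used. Genes named are the 10 members, up to 3 genes of each of the 6 pathway lists with the largest fold change among those called in a comparison, any gene that a count of 5 or fewer refers to, Gfi1, and for each called member the 3 protein-coding genes, outside X, Y and antigen receptor genes, with the highest Pearson correlation. Others named (Tnfrsf1a, Tnfrsf1b, Adam17, Rela, Rel, C1qa, C1qc, Mrc1, Adgre1, S100a8 and S100a9) were chosen after their values were seen. Members and lists were chosen with earlier results of these data known. Windows before starts are from RefSeq (GRCm38.p6) and 3′ UTRs from GENCODE M21. The value of 1 monocyte marker is not reported here.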

Additional observations from a re-analysis of the deposited data

Results flagged for a closer look

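By edgeR's interaction test, KO and KD mice differed by another amount in the older pair of groups than in the young pair for Tnf (−1.94 on the log2 scale, adjusted p = 0.0218) and for 9 of the 80 pathway genes, where 7.43% of all 15102 genes tested were called. Values were negative for Il1r2 (−3.84, adjusted p = 0.0112), Pycard (−0.76, adjusted p = 0.0223), Socs3 (−0.99, adjusted p = 0.0452) and Ptges2 (−0.61, adjusted p = 0.0463), by edgeR. They were positive for Relb (1.51, adjusted p = 0.0127), Traf1 (1.78, adjusted p = 0.0250), Il10ra (0.90, adjusted p = 0.0332), Nfkb2 (0.87, adjusted p = 0.0451) and Nfkb1 (0.63, adjusted p = 0.0478), by edgeR. Of the 9 pathway calls 0 held under every alternative. Leaving out young KD mouse 1 ended 9 of them, young KD mouse 2 ended 5, young KO mouse 1 and young KO mouse 2 8 each, sick KD mouse 1 6, sick KD mouse 2 2, old KO mouse 1 7 and old KO mouse 2 5.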

How the results depend on the processing

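The calls of Tnf in both sick KD comparisons held under all 9 alternatives. In old KO against sick KD mice the number of members called was 1, where 18.1% of all genes were called. It was 2 with DESeq2 size factors (18.1% of all genes) and 2 with the DESeq2 test (21.6%). It was 4 with no filter (19.9%), 2 with all 8 mice in one fit (27.8%) and 3 with the trend removed (26.5%). In sick KD against young KD mice it was 3 (20.9%), and 2 with the DESeq2 test (23.6%). The calls of Il1a and Tnfaip3 there were each lost in some fits with a mouse left out. Between old KO and young KO mice the number was 0 (0.929%), 1 with DESeq2 (2.58%) and 1 with no filter (3.65%). For the interaction it was 1 (7.43%), 2 with DESeq2 (14.6%) and 4 with no filter (12.7%). The share of all genes moved with the setting too, so these counts are no result about the members as a set. The log2 fold change turned sign in old KO against young KO mice for Il1a with DESeq2 (0.0052) and with the trend removed (0.093), and with the trend removed for Nfkbia there (−0.053) and in the interaction (−0.037). None of these was called, and the cause was not tested.

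Uncalled log2 fold changes also turned sign with a mouse left out. In young KO against young KD mice they ran from −0.14 to 0.40 for Tnf, −0.91 to 0.30 for Il1a, −0.21 to 0.19 for Il1rn, −0.018 to 0.29 for Il18, −0.20 to 0.37 for Nfkbia and −4.25 to 0.52 for Ptgs2. Nfkbia in old KO against sick KD mice ran from −0.071 to 0.40. In sick KD against young KD mice Il1rn ran from −0.17 to 0.22, Nfkbia from −0.36 to 0.22 and Ptgs2 from −1.98 to 0.66. Between old KO and young KO mice Tnf ran from −0.30 to 0.15, Il1a from −0.48 to 0.73, Nfkbia from −0.20 to 0.27, Tnfaip3 from −0.17 to 0.078 and Ptgs2 from −1.58 to 3.30. In the interaction Nfkbia ran from −0.19 to 0.37 and Ptgs2 from −0.60 to 4.28.

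Over all genes, young KO against young KD mice gave 6 calls, and 27 with DESeq2, 119 with no filter and 3 with all 8 mice. Old KO against sick KD mice gave 2626, and 4325 with no filter and 4200 with all 8 mice. Sick KD against young KD mice gave 3063, and 4904 with the trend removed. Old KO against young KO mice gave 138, and 383 with DESeq2 and 796 with no filter. The interaction gave 1122, and 1951 with DESeq2, 2919 with no filter and 2139 with the trend removed. Removing the trend moved the split of higher against lower calls from 1437 and 1189 to 1520 and 2319 in old KO against sick KD mice, from 1385 and 1678 to 3125 and 1779 in sick KD against young KD mice, and from 653 and 469 to 712 and 1427 in the interaction. Depth limits Il10, Ptgs2, Il6 and Il1a, whose counts were 0 to 69 per library. No paired analysis was possible because the labels give the groups no shared replicate numbers.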
